A study of Mus musculus with 2 samples.

Results

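The integrated stress response regulators described here are 10 genes that act with or downstream of the transcription factor ATF4. They are Atf5, Ddit3, Atf3, Cebpb, Cebpg, Nupr1, Trib3, Chac1, Sesn2 and Ddit4, 10 of the 31053 genes in the files, and they are a named list for which no measured value was a criterion, although earlier results of these data were known when it was drawn up. Single-cell RNA sequencing had been done on small tumours that grew under the skin of C57BL/6 mice after the mouse melanoma line B16F10 was injected into the flank. The WT library came from Atf4 WT/WT hosts and the KO library from Atf4 Δ/Δ hosts, each 11 weeks old by the labels, with the tumours of 2 mice pooled per library. All hosts carried Rosa26::CreERT2 and all were given tamoxifen, so Cre and the drug are shared by both groups. By design the groups differ in the floxed Atf4 alleles, but Y-linked UMIs were seen among the host cells of KO only. The Cre is active in all tissues, so the deletion is not limited to a cell type, and the injected melanoma cells keep their own Atf4. Because there was only 1 library of each genotype, the differences have no replicate check and no test, and host genotype, library and the pooled tumours cannot be told apart. All intervals are at 95% and cover counting error only.

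The integrated stress response starts when stress kinases phosphorylate the translation initiation factor eIF2α. Most protein synthesis then drops, while the ATF4 message is translated better, and ATF4 binds DNA as a dimer with other basic leucine zipper (bZIP) proteins, among them C/EBP family members. Its targets include further bZIP factors, feedback proteins, and enzymes and transporters of amino acids, and the response is known in tumours for nutrient shortage, hypoxia and endoplasmic reticulum stress.

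The DNA element that ATF4 and C/EBP dimers bind, TGATGNAAN in its letters, was searched on both strands in the 250 bases before each start site in the RefSeq promoters of build GRCm38.p6. All 10 genes had a promoter in that set, and Atf5 had 2. The element was found for 3 of the 10 genes, Nupr1, Chac1 and Atf3. It was found for 3.89% of all 27025 genes in the set, and in 3.44% of all 32851 promoters. These stretches are shown because they are the promoters of the group that hold it, and the capitals mark the match, which in each lies on the strand opposite to the gene.
Nupr1, chr7:126625533-126625621, minus strand: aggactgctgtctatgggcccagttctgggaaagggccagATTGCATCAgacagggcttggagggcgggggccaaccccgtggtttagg
Chac1, chr2:119351008-119351096, plus strand: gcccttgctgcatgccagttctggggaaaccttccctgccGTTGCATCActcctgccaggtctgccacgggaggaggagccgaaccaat
Atf3, chr1:191183396-191183484, minus strand: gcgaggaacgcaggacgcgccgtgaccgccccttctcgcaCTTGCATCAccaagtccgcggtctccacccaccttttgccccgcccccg
The match starts 111 bases before the start site in Nupr1 and in Atf3, and 194 bases before it in Chac1. All 3 also match the stricter form TGATGCAA, which 0.791% of the promoters and 0.918% of the genes hold. A match is a description of the letters only, and its absence from the windows of the other 7 genes says nothing about binding elsewhere.

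On GRCm38, the build of the files, the GENCODE vM21 annotation places Atf5 on chromosome 7 at 44812256 to 44816658, Nupr1 on chromosome 7 at 126623249 to 126630861 and Cebpg on chromosome 7 at 35046422 to 35056573. Trib3 lies on chromosome 2 at 152337422 to 152344032, Chac1 on chromosome 2 at 119351229 to 119354381 and Cebpb on chromosome 2 at 167688915 to 167690418. Ddit3 lies on chromosome 10 at 127290774 to 127296288, Ddit4 on chromosome 10 at 59949669 to 59951834, Atf3 on chromosome 1 at 191170296 to 191218039 and Sesn2 on chromosome 4 at 132492032 to 132510501. All are protein coding, and each value is a count of the UMIs assigned to the gene. Listed genes overlap some of them. Gm12981 lies on the same strand as Sesn2. On the opposite strand lie Nup62 and Il4i1 with Atf5, Mars with Ddit3, Tmem189 with Cebpb and Gm45095 with Cebpg. Their counts are uncertain as far as reads were shared, which for the opposite strand depends on whether counting used the strand.

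Depth was much the same, 38417113 UMIs over 6304 WT barcodes against 38290024 UMIs over 5474 KO barcodes, of which 10 occurred in both. Filters kept 3861 WT and 3557 KO cells, with median depths of 3920 and 6279 UMIs, and 1 shared barcode among them. Cells were then gated by marker genes. The melanoma-like gate held 1726 WT and 1848 KO cells, the macrophage-like gate 814 and 648, the monocyte-like gate 240 and 134, the fibroblast gate (CAF-like cells, for cancer-associated fibroblasts) 190 and 217, and the endothelial-like gate 62 and 20. The T/NK-like gate held 17 and 7 cells, had at most 3 UMIs of any of the 10 genes in a library, and is not compared. Median depths were 11475.5 and 10887 UMIs in melanoma-like cells, 3742.5 and 3747 in CAF-like cells, and 2455.5 and 2431.5 in macrophage-like cells. Levels are UMI counts scaled to the total of the gate and library (CPM), and they are compared for the same gene only.

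Both libraries are labelled as pooled from males and females, but WT host cells held 0 UMIs of the 4 Y-linked genes measured in each of the host gates. In KO these genes summed to 80.3 CPM in CAF-like and 75.7 CPM in macrophage-like cells, with 4 of 4 seen. Host results are therefore also given for Xist cells, those that held Xist but none of the Y-linked genes (153 WT and 54 KO CAF-like cells, 605 and 73 macrophage-like cells), and set beside KO cells of the opposite kind, called Y cells (50 and 106). Red blood cell genes, 5 measured, summed to 430.3 CPM in WT against 0.0490 CPM in KO melanoma-like cells, and to 1565 and 0.592 CPM in macrophage-like cells. Neutrophil genes, 5 measured, were at 0 and 53.2 CPM in CAF-like cells and at 16.8 and 93.5 CPM in macrophage-like cells. The part of these differences in the results was not tested.

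The targeted gene followed the labels. Atf4 was at 261 CPM in WT against 39.6 CPM in KO CAF-like cells (194 and 35 UMIs), and the log2 KO/WT ratio was -2.72 (-3.28 to -2.19). In macrophage-like cells it was at 177 and 39.6 CPM, a log2 KO/WT of -2.16 (-2.55 to -1.78). Endothelial-like cells had 53 Atf4 UMIs in WT and 0 in KO, at least 5.98-fold lower when the floor of 3 UMIs is used. Monocyte-like cells were at 178 and 60.1 CPM. In melanoma-like cells, which carry no deletion, the levels were 226 and 208 CPM, a log2 KO/WT of -0.12 (-0.18 to -0.06). Free melanoma RNA made up an estimated 4.38% and 4.97% of the UMIs of CAF-like cells, which comes to 10.3 CPM of Atf4 in KO.

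The first comparison asked how the regulators differed in the CAF-like cells, the host class that the study was about. Of the 10 genes, 7 had at least 50 UMIs over both libraries, and 2 of these were lower in KO by at least 1.5-fold, Atf5 and Atf3, while 0 were higher. In the Xist cells Nupr1 and Ddit3 were also past that fold, which makes 4, but Ddit3 rests there on 29 WT and 4 KO UMIs with an interval that includes 0. Of all 4296 genes with as many UMIs in the whole gate, 12.3% were lower and 9.61% were higher by that fold. The median log2 ratio of the 7 was -0.31, against -0.04 for all genes. Their levels are plotted by gate and library.

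**Figure D1:**
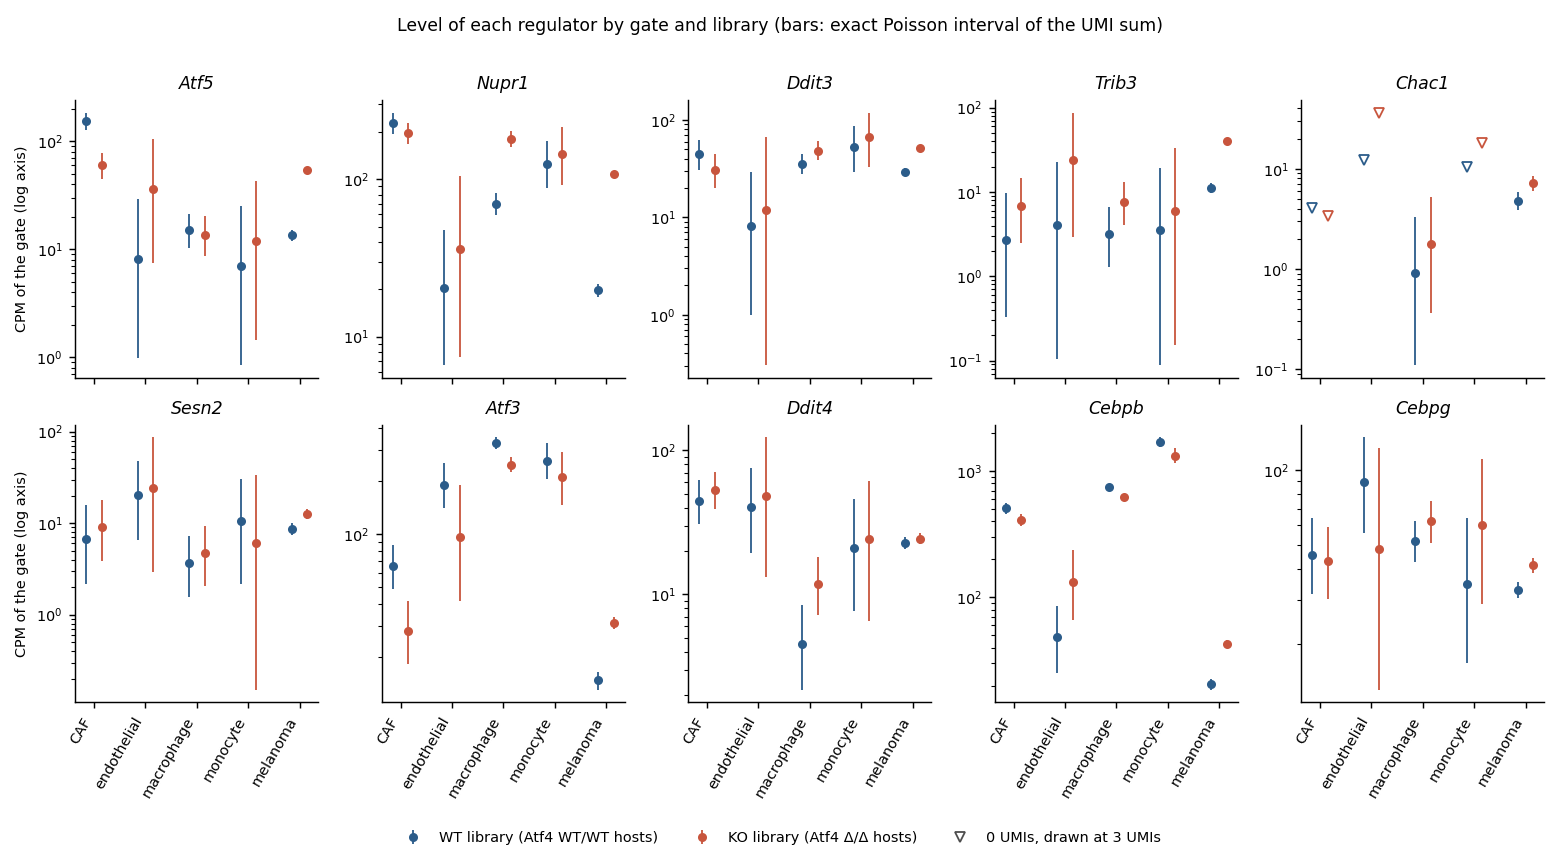
Level of each of the 10 regulators in CPM on a log axis, by gate, with the WT library in blue and the KO library in red; points are UMI sums of the gate, bars exact Poisson intervals, and open triangles mark 0 UMIs drawn at the floor of 3. Atf5 stood out in WT CAF-like cells at 153 CPM, and in melanoma-like cells all 10 points of KO lie above those of WT.

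Atf5, a bZIP factor that like ATF4 is translated better under stress and acts in the mitochondrial stress response, was at 153 CPM in WT CAF-like cells (126 to 184, 114 UMIs), against 59.9 CPM in KO (44.9 to 78.4, 53 UMIs). The log2 ratio was -1.35 (-1.85 to -0.87), and the counting intervals of the libraries do not overlap. At 2000 UMIs per cell, 25.3% of 162 WT and 11.8% of 187 KO CAF-like cells had an Atf5 UMI, and without thinning 44.2% and 18.9%. The pigment gene Dct, which fibroblasts lack, had a UMI in 35.8% and 28.9% of the thinned cells, so a share of cells alone cannot be read as expression. In WT, CAF-like cells had the highest Atf5 level of the gates, followed by macrophage-like cells (33 UMIs) and melanoma-like cells at 13.5 CPM, which overlapped. In KO the CAF-like level overlapped that of melanoma-like cells. WT Xist cells were at 151 CPM, KO Xist cells at 52.6 CPM (10 UMIs) and KO Y cells at 75.2 CPM (20 UMIs), so that both KO values lay below WT by more than counting error.

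Atf3 encodes a bZIP factor that is also switched on within minutes by tissue handling and growth signals. It was at 65.9 CPM in WT CAF-like cells (48.7 to 87.1, 49 UMIs), against 28.3 CPM in KO (18.3 to 41.7, 25 UMIs), which gave a log2 KO/WT of -1.22 (-1.98 to -0.50). The ratio was -1.18 (-2.70 to 0.06) in Xist cells, where only 6 KO UMIs were left, and its interval then includes 0. For KO Y against WT Xist cells it was -1.93 (-3.62 to -0.60), from 5 KO UMIs. Immediate early genes were lower in KO along with Atf3 in this gate. Their 11 members, all seen in both libraries, summed to 5932 CPM in WT against 4148 CPM in KO, with Fos at 784 and 333 CPM and Jun at 742 and 322 CPM. Their part in the Atf3 result was not tested.

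Cebpb, a C/EBP factor that pairs with ATF4 and also drives inflammatory genes, was abundant in host cells. CAF-like cells had 509.5 CPM in WT against 411 CPM in KO, which gave a log2 KO/WT of -0.31 (-0.52 to -0.10). This difference was not seen in Xist cells, at 503 and 499.9 CPM, whereas KO Y cells were at 331 CPM, so the value moved with the sex-linked genes. Cebpg, a smaller C/EBP protein that dimerises with other bZIP factors, was at 45.7 and 43.0 CPM, a log2 KO/WT of -0.09 (-0.80 to 0.62).

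Ddit3 encodes CHOP, the bZIP factor linked to cell death under lasting stress. CAF-like cells had 44.4 CPM (33 UMIs) for WT and 30.5 CPM (27 UMIs) for KO, and the interval of its log2 value, -0.54 (-1.33 to 0.24), includes 0. When cells were thinned to equal depth the sign was opposite, at 0.28, and in Xist cells only 4 KO UMIs were left. A difference in Ddit3 was thus not detectable at this depth.

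Nupr1 encodes a small chromatin-associated stress protein. CAF-like cells held the highest Nupr1 level of all gates in WT, 227 CPM (194 to 264), and 197 CPM in KO (169 to 228), which gave a log2 KO/WT of -0.21 (-0.52 to 0.11). KO Xist cells were at 111 CPM (21 UMIs), giving -1.02 (-1.75 to -0.35), and KO Y cells were at 177 CPM, giving -0.34 (-0.85 to 0.14). The result for Nupr1 in CAF-like cells therefore depended on which KO cells were used.

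Of Trib3 and the effectors Chac1, Sesn2 and Ddit4, all but Ddit4 were scarce in CAF-like cells. Trib3, a pseudokinase that binds AKT and ATF4 and acts as feedback, had 2 UMIs in WT and 6 in KO, a log2 KO/WT of 1.34 (-1.15 to 4.68). Chac1, an enzyme that breaks down glutathione, had 0 UMIs in both libraries, which by the floor of 3 counts allows up to 1.85% of WT and 1.60% of KO cells with a UMI at 2000 UMIs. Sesn2, a leucine sensor that holds back mTORC1, had 5 and 8 UMIs. Ddit4, also called REDD1, an mTORC1 inhibitor induced by hypoxia and glucocorticoids, was at 44.4 and 53.2 CPM, a log2 KO/WT of 0.26 (-0.41 to 0.95). Hypoxia genes were higher in KO CAF-like cells, where their 10 members summed to 2149 CPM against 1066 CPM in WT. Their part in the level of Ddit4, which was at 0.28 in Xist cells and at -0.08 for KO Y against WT Xist cells, was not tested.

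In macrophage-like cells the regulators were mostly close between the libraries. Of 6 genes with at least 50 UMIs, 0 were lower by 1.5-fold and 1 was higher, Nupr1 (also Ddit3 after thinning, at 0.83), against 6.52% lower and 7.16% higher among all 6660 genes. The median log2 ratio of the 6 was 0.06, and that of all genes -0.01.

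Nupr1 was at 69.5 CPM (59.0 to 81.5, 153 UMIs) for WT and 179.9 CPM (160.2 to 201, 304 UMIs) for KO macrophage-like cells, a log2 KO/WT of 1.37 (1.09 to 1.66). It was seen in 11.1% of 541 WT and 23.2% of 419 KO cells thinned to 2000 UMIs, and in 15.4% and 22.5% of all cells. Free melanoma RNA, which held more Nupr1 in KO, was estimated to add 1.18 CPM in WT against 6.63 CPM in KO, and the log2 ratio was 1.34 with it subtracted. Dct had a UMI in 41.6% and 34.8% of the same thinned macrophage-like cells. In Xist cells the levels were 62.9 and 151 CPM, and in KO Y cells 277 CPM. Hypoxia genes, 10 of 10 seen, summed to 952 CPM in WT against 1450 CPM in KO macrophage-like cells, and glucocorticoid-responsive genes, 4 of 4 seen, to 105 and 256 CPM. Their part in the Nupr1 level was not tested.

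Atf3 reached its highest level here, at 330 CPM (306 to 355) for WT and 249 CPM (225 to 273) for KO, which gave a log2 KO/WT of -0.41 (-0.59 to -0.23), a smaller difference than the 1.5-fold limit. In Xist cells it was at -0.31 (-0.71 to 0.07). Monocyte-like cells followed at 262 and 210.3 CPM, overlapping the macrophage-like values in both libraries. Cebpb was at 743 CPM in WT against 624 CPM in KO macrophage-like cells, a log2 KO/WT of -0.25 (-0.37 to -0.14). The Xist cells gave -0.24 (-0.50 to 0.02).

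For the other genes the intervals in macrophage-like cells included 0, except for Ddit4. Ddit3 was at 35.5 and 48.5 CPM, a log2 KO/WT of 0.45 (-0.01 to 0.92), and Cebpg at 51.8 and 62.1 CPM. Atf5 had 33 WT and 23 KO UMIs, and a difference was not detectable (log2 KO/WT -0.14, from -0.98 to 0.67). Free melanoma RNA came to 3.33 of its 13.6 CPM in KO. Ddit4 had 10 UMIs in WT and 20 in KO, a log2 KO/WT of 1.38 (0.22 to 2.64) that was 0.17 in Xist cells. Trib3 had 7 and 13 UMIs, Sesn2 8 and 8, and Chac1 2 and 3.

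Monocyte-like and endothelial-like cells were few, and were not split by sex-linked genes. In monocyte-like cells 3 genes had at least 50 UMIs and 0 passed 1.5-fold in either direction, against 9.63% lower and 8.28% higher among 1340 genes. Cebpb had its highest level there, 1696 CPM in WT against 1328 CPM in KO, which gave a log2 KO/WT of -0.35 (-0.59 to -0.12). In endothelial-like cells only Atf3 had enough UMIs, and it was lower, at 191 CPM (47 UMIs) for WT and 96.1 CPM (8 UMIs) for KO, where 10.9% of 1026 genes were lower and 9.36% higher by that fold. The interval of its log2 ratio, -0.99 (-2.28 to 0.10), includes 0. Cebpb was higher there, from 12 UMIs in WT and 11 in KO, at 48.8 and 132 CPM, a log2 KO/WT of 1.44 (0.11 to 2.75).

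Across the gates, the order of levels differed from gene to gene. Cebpb had the same order in both libraries, monocyte-like, macrophage-like, CAF-like, endothelial-like and melanoma-like cells, with no overlap between neighbours. Atf3 was high in the macrophage-like, monocyte-like and endothelial-like gates, whose neighbours overlapped, and lower in CAF-like and melanoma-like cells, which overlapped in KO but not in WT. Chac1 was higher in melanoma-like than in macrophage-like cells in both libraries without overlap, and was at 0 UMIs in the other gates, where the upper limits in the monocyte-like (12.9 and 22.2 CPM) and endothelial-like gates (15 and 44.3 CPM) lie above the melanoma-like levels and allow no order. Trib3 was highest in melanoma-like cells, but overlapped the endothelial-like level from 1 WT and 2 KO UMIs. Ddit4 ran from CAF-like cells over endothelial-like, melanoma-like and monocyte-like cells to macrophage-like cells, each overlapping the next. Ddit3, Cebpg and Sesn2 had overlapping intervals between all neighbours in both libraries. Gates further apart in the order could still differ. In both libraries Cebpg was higher in macrophage-like than in melanoma-like cells without overlap (WT 42.7 to 62.2 against 30.5 to 35.6 CPM). Ddit4 was likewise higher in CAF-like than in melanoma-like cells (WT 30.5 to 62.3 against 20.6 to 24.8 CPM), and Sesn2 lower in macrophage-like than in melanoma-like cells (WT 1.57 to 7.17 against 7.46 to 10.1 CPM).

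The second comparison concerned the melanoma-like cells, which have their own Atf4 in both libraries and grew in hosts with or without it. All 10 regulators had at least 50 UMIs there and all 10 were higher in KO, 6 of them by at least 1.5-fold. Those were Nupr1, Atf5, Trib3, Atf3, Cebpb and Ddit3, and 0 were lower by that fold. The gate held 7 of 7 melanoma markers in both libraries, with sums of 13438 and 10290 CPM. Of all 11043 genes with as many UMIs, 7.12% were higher and 3.52% lower. The median log2 ratio of the 10 was 0.93, against 0.02 for all genes. For 9 of the 10 the interval lay above 0, but intervals were not counted over all genes. At this depth an interval can exclude 0 for a small difference, so that count is not particular to the 10.

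**Figure D2:**
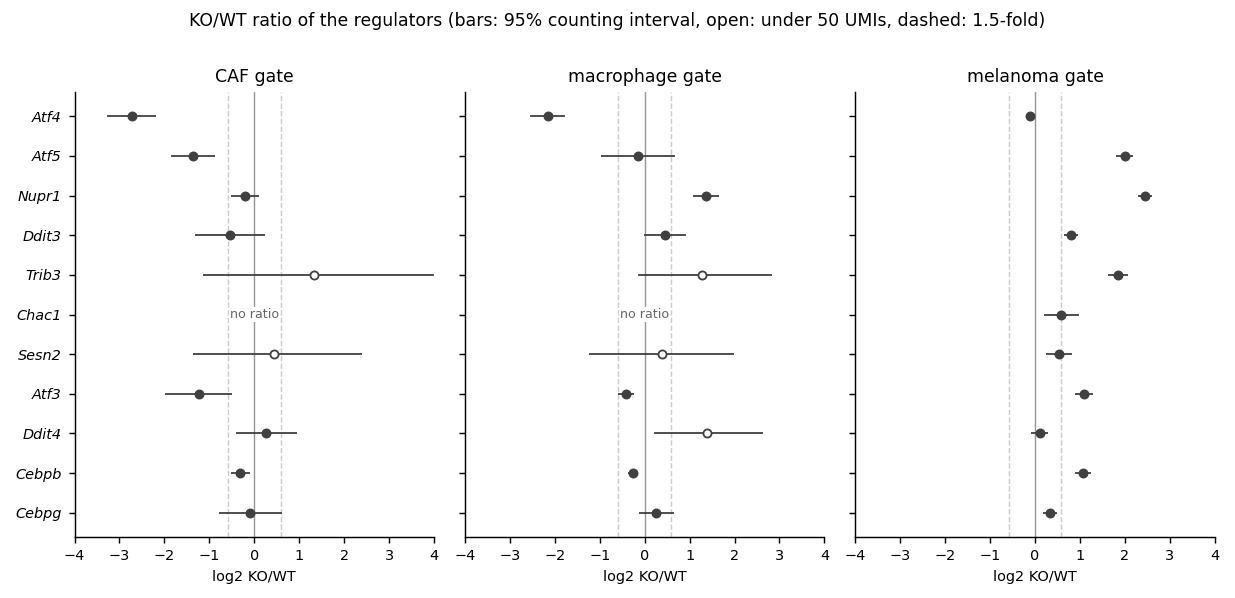
Log2 KO/WT ratio of Atf4 and the 10 regulators in the CAF, macrophage and melanoma gates, with 95% counting intervals; open points have under 50 UMIs, dashed lines mark 1.5-fold, and 1 interval that runs past the axis is cut at its edge. Atf4 is at -2.72 in CAF-like and -0.12 in melanoma-like cells, whereas Nupr1 is at -0.21 and 2.45.

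Nupr1 had the largest ratio. It was at 19.7 CPM in WT melanoma-like cells (17.8 to 21.7, 391 UMIs), against 107 CPM in KO (102.9 to 112, 2190 UMIs), which gave a log2 KO/WT of 2.45 (2.29 to 2.61), or 5.45-fold. At 2000 UMIs per cell it was seen in 3.74% of 1656 WT cells and 16.7% of 1792 KO cells, and without thinning in 12.9% and 39.2%. In WT, melanoma-like cells were the lowest of the 5 gates for Nupr1, together with endothelial-like cells, which overlapped them. In KO their interval overlapped those of its neighbours in the order, the monocyte-like cells above and the endothelial-like cells below.

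Atf5 was at 13.5 CPM (11.98 to 15.3, 269 UMIs) for WT and 53.9 CPM (50.7 to 57.2, 1099 UMIs) for KO, which gave a log2 KO/WT of 1.99 (1.80 to 2.19). The direction was opposite to that in CAF-like cells. Trib3 was at 11.2 CPM (222 UMIs) for WT and 40.003 CPM (816 UMIs) for KO, which gave a log2 KO/WT of 1.84 (1.62 to 2.06). At 2000 UMIs per cell Atf5 was seen in 2.84% of WT and 9.77% of KO cells, and Trib3 in 2.60% and 8.43%.

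Among the other bZIP factors, Atf3 was at 14.8 and 31.2 CPM, a log2 KO/WT of 1.08 (0.88 to 1.29), and Cebpb at 20.6 and 42.9 CPM, with 1.06 (0.89 to 1.23). Ddit3 was at 29.6 and 51.5 CPM, with 0.80 (0.65 to 0.95), and Cebpg at 32.9 and 41.4 CPM, with 0.33 (0.18 to 0.48). Cebpb and Atf3 are far higher in macrophage-like cells, so markers of those cells were summed here. The 8 macrophage markers stood at 27.4 and 29.5 CPM in melanoma-like cells of WT and KO, against 13273 and 15159 CPM in macrophage-like cells, and the 8 CAF markers at 37.4 and 40.1 CPM. The melanoma gate itself limits the UMIs of these markers. Low sums are therefore in part built in and cannot show how much host RNA these cells held.

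The effectors differed by less than 1.5-fold. Chac1, which was almost absent from host cells, was at 4.79 CPM (95 UMIs) for WT and 7.16 CPM (146 UMIs) for KO, which gave a log2 KO/WT of 0.58 (0.20 to 0.97). Sesn2 was at 8.71 and 12.6 CPM, with 0.54 (0.25 to 0.82). Ddit4 was at 22.6 and 24.3 CPM, with 0.10 (-0.09 to 0.29), the only interval of the 10 that includes 0. Hypoxia genes summed to 2310 CPM in WT against 2440 CPM in KO melanoma-like cells, with 10 of 10 seen, and immediate early genes to 989 and 1055 CPM, with 11 of 11 seen. The 3 genes with the element in the promoter windows shown above, Nupr1, Chac1 and Atf3, stood at 2.45, 0.58 and 1.08.

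The melanoma-like cells were then split within each library by their mitochondrial share, by a UMI of the proliferation genes Mki67 or Top2a, and by their share of hypoxia UMIs. Most cells had 5 to 7.5% mitochondrial UMIs, 1392 in WT and 1110 in KO. In these Nupr1 was at 17.3 CPM in WT against 81.4 CPM in KO, which gave a log2 KO/WT of 2.24 (2.05 to 2.43), Atf5 at a log2 ratio of 1.77 (199 and 519 UMIs), and Trib3 at 8.88 and 32.8 CPM. At 2.5 to 5% (302 and 598 cells) the ratios were smaller, with Nupr1 at 1.90 (1.58 to 2.23), Atf5 at 1.55 and Trib3 at 1.04. At 1 to 2.5% (25 and 65 cells) Nupr1 was at 0.995 (0.14 to 1.99), and the intervals of Atf5, Trib3 and Ddit3 included 0. Chac1 was not detectably different in the cells with 5 to 7.5%, at 4.53 and 5.15 CPM, a log2 KO/WT of 0.18 (-0.32 to 0.68).

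KO also held 75 melanoma-like cells with under 1% mitochondrial UMIs, at a median depth of 8262 UMIs, whereas WT held 7. In these KO cells Nupr1 was at 530 CPM (339 UMIs), 6.51-fold the level of KO cells with 5 to 7.5% (5.74 to 7.37). Atf5 was at 229.8 CPM, 5.59-fold (4.62 to 6.73), Ddit3 at 147 CPM, 3.43-fold (2.72 to 4.28), Trib3 at 122 CPM, 3.72-fold (2.88 to 4.75), and Atf3 at 90.7 CPM, 3.60-fold (2.67 to 4.77). Ddit4 and Sesn2 did not share this. Ddit4 was at 21.9 against 21.4 CPM, and Sesn2 at 6.25 against 13.6 CPM from 4 UMIs. Atf4 itself was at 259 against 193 CPM. The 7 WT cells, at a median depth of 1581 UMIs, had 0 to 4 UMIs of each regulator. Against WT cells with 5 to 7.5%, Atf5 was 25.6-fold (6.91 to 66.6) and Trib3 34.7-fold (9.33 to 90.7), each from 4 UMIs. From 2 UMIs each, Nupr1 was 8.91-fold (1.07 to 32.5) and Cebpb 8.30-fold (1.001 to 30.2), and the intervals of Ddit3 and Ddit4 included 1. Chac1, Sesn2, Atf3 and Cebpg had 0 UMIs. Higher levels of some regulators in such cells were thus not limited to KO. For Nupr1, at 2 UMIs, the interval of the log2 KO/WT ratio runs from -0.08 and includes 0, so that no difference between the libraries was detectable in this bin.

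**Figure D3:**
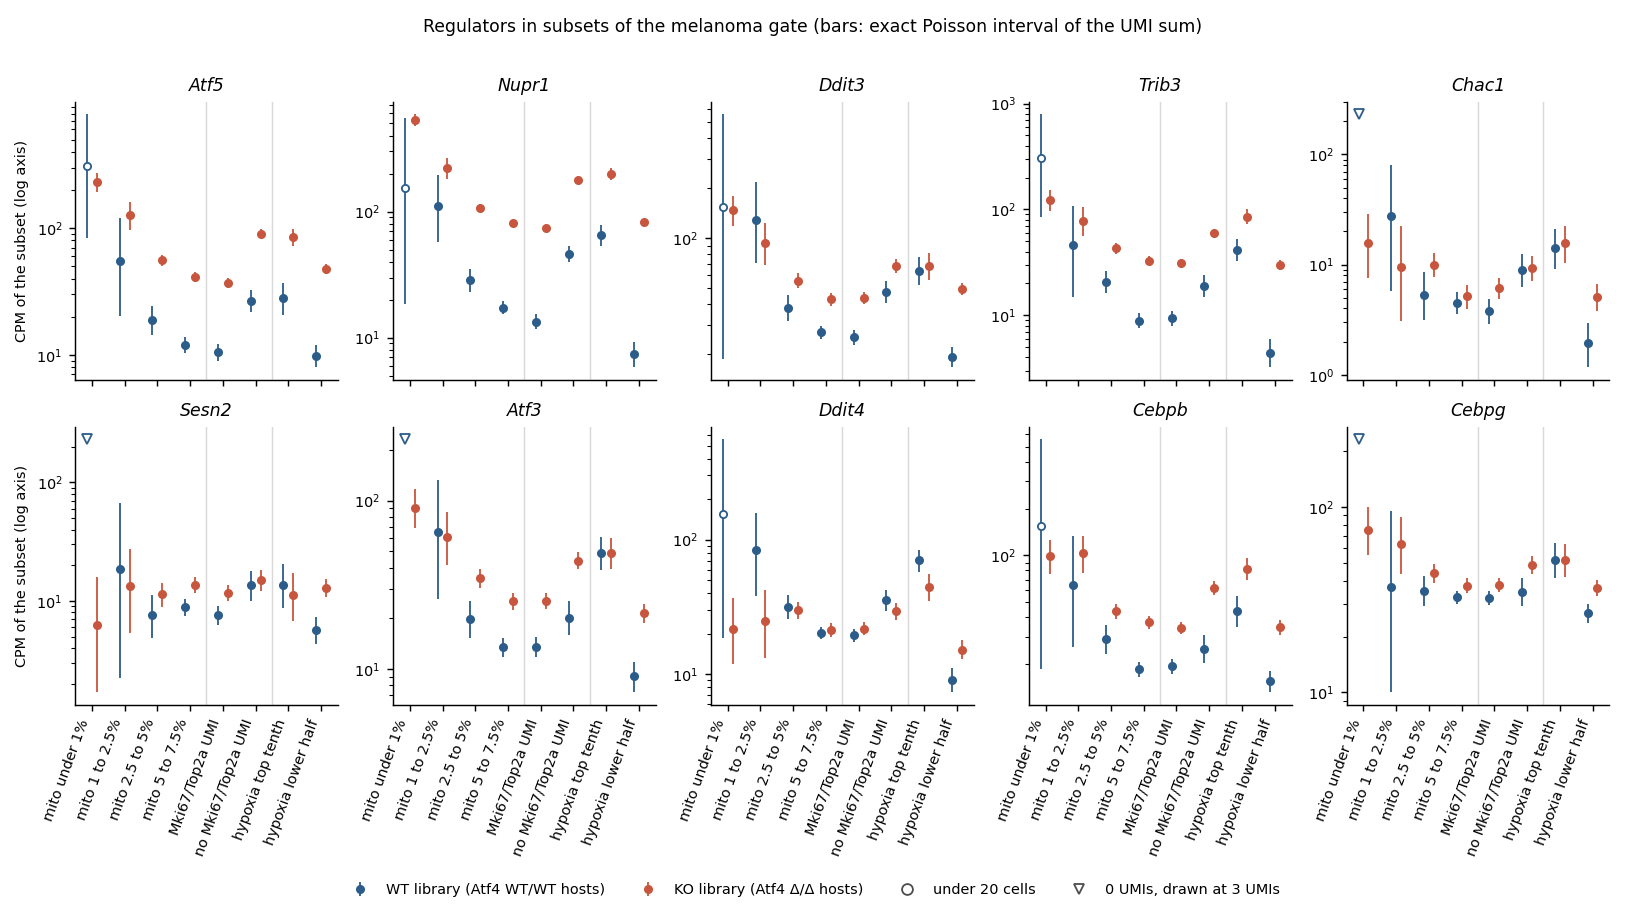
Level of each regulator in CPM on a log axis in subsets of the melanoma-like cells, by mitochondrial share, proliferation UMIs and hypoxia share, with the WT library in blue and the KO library in red; bars are exact Poisson intervals, open circles subsets of under 20 cells, and triangles 0 UMIs drawn at 3. Nupr1 in KO ran from 530 CPM in cells under 1% mitochondrial UMIs to 81.4 CPM in cells with 5 to 7.5%.

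Cells with a proliferation UMI had less of most regulators in both libraries, and were deeper, with median depths of 12641 and 12447 UMIs against 8992 and 9067.5 without. With a Mki67 or Top2a UMI (1269 WT and 1122 KO cells) Nupr1 was at 13.4 and 74.3 CPM, and without (457 and 726 cells) at 46.3 and 179 CPM. The log2 ratio of Nupr1 was 2.47 with such a UMI (2.25 to 2.68) and 1.95 without it (1.72 to 2.19), and KO had more cells without one, the part of which in the difference between the libraries was not tested. Atf5 stood at 1.83 and 1.76 and Trib3 at 1.73 and 1.64, with overlapping intervals within each gene. Cebpb differed more in cells without, at 1.29 (0.97 to 1.63), than in cells with such a UMI, at 0.81 (0.61 to 1.02), a difference of ratios that was not tested.

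Hypoxia share separated the levels in WT more widely than in KO. The list for it holds none of the 10 regulators, and its summed level in the top 10% was alike, at 6340 CPM in WT against 6123 CPM in KO. In the top 10% of WT melanoma-like cells by that share (173 cells), Nupr1 was at 64.7 CPM, 8.73-fold the level of WT cells below the median (6.46 to 11.8), Trib3 at 41.6 CPM, 9.38-fold (6.38 to 13.9), and Ddit4 at 70.1 CPM, 7.66-fold (5.80 to 10.1). In KO the same folds were 2.43 (2.14 to 2.75), 2.85 (2.33 to 3.46) and 2.91 (2.20 to 3.83). For these 3 genes the hypoxic cells had the higher levels in both libraries, and for Nupr1 and Trib3 the WT level below the median was far under that of KO.

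Of these subsets with at least 20 cells in each library, the KO/WT ratio of Nupr1 and of Trib3 was largest in the cells below the median. Below the median, Nupr1 was at 7.41 CPM in WT against 82.0 CPM in KO, which gave a log2 KO/WT of 3.47 (3.13 to 3.82), Trib3 at 4.43 and 30.1 CPM, with 2.76 (2.31 to 3.24), and Ddit4 at 9.15 and 15.3 CPM, with 0.74 (0.36 to 1.12). In the top 10% Nupr1 was still higher in KO, with 1.62 (1.31 to 1.94), but Atf3 was at 48.7 and 48.9 CPM, Cebpg at 51.7 in both, and Ddit4 was lower in KO, at 70.1 and 44.5 CPM with -0.66 (-1.08 to -0.23). Atf4 was also lower in KO in these cells, at 334 and 214 CPM, a log2 KO/WT of -0.64 (-0.83 to -0.45), and alike below the median, at 195 and 203 CPM.

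Several regulators were seen together in the same melanoma-like cells. At 2000 UMIs per cell, 72.8% of WT cells (70.6 to 74.9) had a UMI of 0 of the 10 genes, against 54.3% of KO cells (52.0 to 56.6). Cells with UMIs of 3 or more of them made up 1.75% (1.18 to 2.51) in WT and 7.37% (6.20 to 8.67) in KO, with up to 7 and 6 of the genes in a cell. The shares of the single genes were also higher in KO, and the share to be expected from them was not computed. In CAF-like cells 3 or more were seen in 14.2% of WT and 9.09% of KO cells, and in macrophage-like cells in 10.2% and 11.2%, with overlapping intervals.

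**Figure D4:**
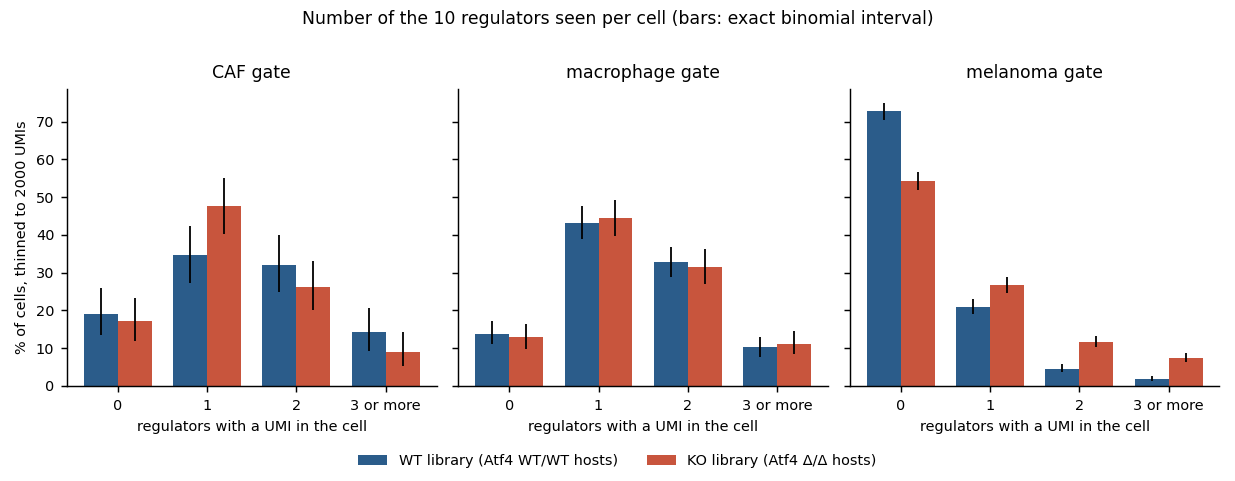
Share of cells, thinned to 2000 UMIs, in which UMIs of 0, 1, 2 or 3 or more of the 10 regulators were seen, by gate, with WT in blue and KO in red and exact binomial intervals. In the melanoma gate the share with 3 or more is 1.75% in WT and 7.37% in KO.

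For each of the 45 pairs of regulators, the share of thinned melanoma-like cells with a UMI of the first gene was compared between cells with and without the second. The share was higher in cells with the second gene for 40 pairs in KO and 38 in WT. The 5 other KO pairs were each seen together in at most 8 cells, and among them Ddit4 was seen 0.78 times as often in cells with Cebpg as in cells without. Both genes were seen in at least 10 cells for 28 of the pairs in KO and 3 in WT, all of them with the higher share. Most of the WT pairs, in either direction, thus rest on fewer cells. No pairs of other genes were counted for comparison. Nupr1 was seen in 35.1% of the 151 KO cells with a Trib3 UMI and in 14.99% of those without. Atf5 was seen in 20.4% of the 299 KO cells with a Nupr1 UMI and in 7.64% of those without. In WT Nupr1 was seen in 25.6% of 43 cells with a Trib3 UMI (13.5 to 41.2) and in 3.16% of those without. These cells share a library, so the shares are a description of these tumours.

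No gate was passed by 789 WT and 675 KO cells, at median depths of 1284 and 1273 UMIs. Nupr1 was at 72.7 and 284.5 CPM there, Atf5 at 30.7 and 107 CPM, Trib3 at 13.6 and 63.4 CPM, and Ddit3 at 37.8 and 100.3 CPM. These were the same genes in the same direction as in melanoma-like cells, while Cebpb was lower in KO, at 517 and 359 CPM. Among 88 such KO cells with under 1% mitochondrial UMIs Nupr1 was at 601 CPM, and in 47 WT cells of this kind at 126 CPM (13 UMIs). Against the other cells that passed no gate, this was 2.56-fold in KO (2.13 to 3.08) and 1.82-fold in WT (0.94 to 3.24). Both libraries thus held ungated cells with so few mitochondrial UMIs, but a higher Nupr1 level in them was not detectable in WT.

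The rest of the pathway was read from a list of 24 genes, among them Atf4, the eIF2α kinases and phosphatase subunits, amino acid enzymes and transporters, and endoplasmic reticulum stress genes. In melanoma-like cells 23 had at least 50 UMIs, of which 7 were higher in KO by 1.5-fold and 0 lower, where 7.12% of all genes were higher and 3.52% lower, and the median log2 ratio was 0.25. The 7 were Aldh1l2, a mitochondrial folate enzyme, at 2.21 (7.91 and 36.5 CPM), Vldlr, a lipoprotein receptor, at 1.70, and Slc7a11, the cystine importer, at 1.15. Eif4ebp1, a repressor of cap-dependent translation, stood at 0.99 (198 and 393 CPM), Asns, asparagine synthetase, at 0.81 (110.5 and 193.5 CPM), Gdf15, a stress cytokine, at 0.80, and Slc7a5, a leucine importer, at 0.78. The 4 kinase genes were at most at 0.12, each with an interval that included 0, and Hspa5, the chaperone of the endoplasmic reticulum, was at 0.25 (0.22 to 0.28).

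**Figure D5:**
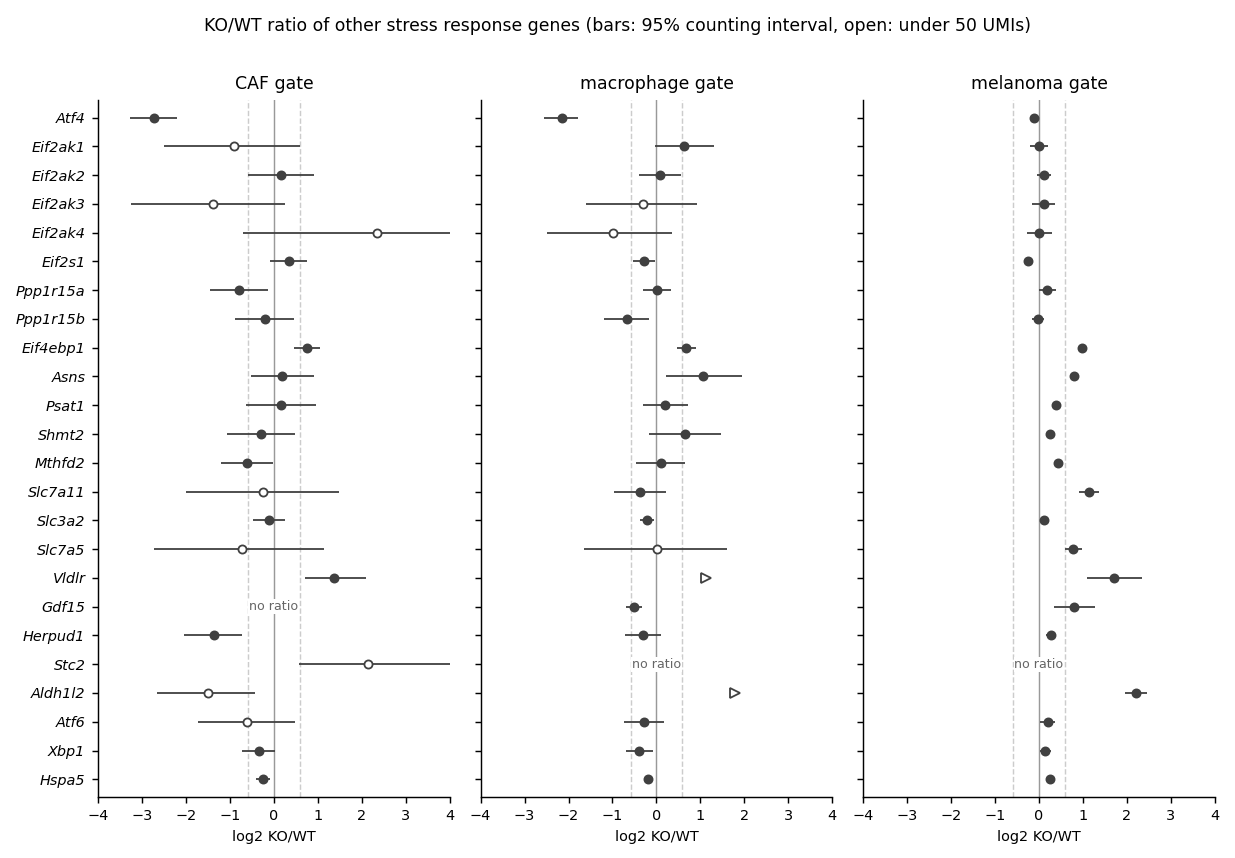
Log2 KO/WT ratio of the 24 genes of the pathway list in the CAF, macrophage and melanoma gates, with 95% counting intervals; open points have under 50 UMIs, open triangles are bounds from a count of 0, dashed lines mark 1.5-fold, and intervals past the axis are cut at its edge. Eif4ebp1 is right of 0 in all 3 panels, at 0.76, 0.68 and 0.99. Aldh1l2 is at 2.21 in melanoma-like cells and at -1.49 in CAF-like cells, where it had under 50 UMIs and was not counted.

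In CAF-like cells 15 of the 24 had enough UMIs, with 4 lower in KO by 1.5-fold, namely Atf4, Herpud1, Ppp1r15a and Mthfd2, 2 higher, namely Vldlr and Eif4ebp1, and a median of -0.21. Atf4 is the deleted gene itself, and 12.3% of all genes were lower and 9.61% higher in this gate. Herpud1, of the endoplasmic reticulum degradation machinery, was at 87.4 and 33.9 CPM, with -1.36 (-2.04 to -0.72). Ppp1r15a, the GADD34 subunit that reverses eIF2α phosphorylation, was at 68.6 and 39.6 CPM, with -0.79 (-1.46 to -0.14), and Mthfd2, another mitochondrial folate enzyme, at -0.62 (-1.21 to -0.03). Asns and Psat1, amino acid enzymes that ATF4 is known to drive, were at 0.19 (-0.52 to 0.91) and 0.15 (-0.64 to 0.96), and no difference was detectable. Eif4ebp1 was higher in KO, at 188 and 318 CPM, with 0.76 (0.46 to 1.06).

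In macrophage-like cells 18 of the 24 had enough UMIs, with 2 lower, Atf4 and Ppp1r15b, and 4 higher, Eif4ebp1, Asns, Eif2ak1 and Shmt2, against 6.52% and 7.16% of all genes, and a median of -0.20. The intervals of Eif2ak1 (-0.04 to 1.32) and Shmt2 (-0.17 to 1.47) include 0. Asns rested on 20 and 32 UMIs, a log2 KO/WT of 1.06 (0.21 to 1.94). Gdf15, at 325 and 227 CPM, was lower in KO with -0.51 (-0.70 to -0.33). In monocyte-like cells 7 genes were read, with Atf4 and Slc7a11 lower and Eif4ebp1 higher, where 9.63% of all genes were lower and 8.28% higher, and the interval of Slc7a11 (-1.41 to 0.14) includes 0. In endothelial-like cells 3 were read, with Atf4 and Hspa5 lower, where 10.9% of all genes were lower.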

How the data were processed

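The authors deposited 1 matrix per library with UMI counts, not normalised, made in Cell Ranger 3.1.0 on GRCm38 and an Ensembl gene set. Whether counting used the strand is not given in the sources used here. The labels and the methods of the study name different versions of the 10x kit.

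The 10 genes, the gene lists and the alternatives were chosen with earlier results of these data known. The limits of the study on cells were used (200 to 5000 genes, mitochondrial UMIs up to 7.5%). A melanoma-like cell had UMIs of at least 4 of 7 markers, host-marker UMIs of at most 10% of its melanoma-marker UMIs, and a melanoma-marker share of at least 25% of the median. Host cells lay below that share and had at least 4 of 8 CAF, 4 of 9 endothelial, 4 of 8 macrophage or 3 of 6 monocyte markers. Cells in more than 1 host gate were left out. The gates were set after marker levels were seen. Doublets were not removed in the main values.

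UMIs were summed per gate and library and scaled to CPM. Sums have exact Poisson intervals, shares exact Clopper-Pearson intervals and ratios exact conditional binomial intervals, all at 95%. A count of 0 was set to 3 for a bound, and no ratio is given when both counts are at most 3. The background is all genes with at least 50 UMIs in a gate. All 10 genes, Atf4, the 24 pathway genes and for each of the 10 the 3 genes of most similar level were named by rule. The intervals were tried on simulated Poisson counts, the counting model they assume. These counts had no spread between mice or libraries, so the trial says nothing about such spread. edgeR 4.0.16 and DESeq2 1.42.0 (R 4.3.3) gave scaling factors only, and Scrublet in scanpy 1.11.5 called doublets. Sums and intervals were made in Python 3.11.15 (scipy 1.17.1, pandas 2.3.3, numpy 2.4.6). Alternatives were a mitochondrial limit of 15%, genes per cell without an upper limit, called doublets left out, 1 marker more or fewer, CPM without mitochondrial and ribosomal protein genes, TMM and size factors, the mean of per-cell CPM, thinning to 2000 or 1000 UMIs, free RNA subtracted, and host cells with Xist. Free melanoma RNA was estimated from the melanoma markers in each host gate.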

Additional observations from a re-analysis of the deposited data

Results flagged for a closer look

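Some regulators had KO/WT ratios of opposite sign in melanoma-like and host cells, each with an interval that excludes 0. The log2 ratio in the melanoma gate minus that in the CAF gate was 3.35 for Atf5, 2.30 for Atf3 and 1.37 for Cebpb. Minus that in the macrophage gate, it was 1.49 for Atf3 and 1.31 for Cebpb. In Xist cells the host interval of Atf3 (CAF gate -2.70 to 0.06, macrophage gate -0.71 to 0.07) and of Cebpb (-0.36 to 0.33 and -0.50 to 0.02) includes 0, and that of Atf5 in the CAF gate (-2.63 to -0.58) does not. With 1 library per genotype these differences were not tested, and every gate of a library comes from the same pooled tumours.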

How the results depend on the processing

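No paired analysis was possible because there was only 1 library of each genotype, and no replicate could be left out. Counting intervals do not cover the spread between mice, and host sex and genotype are partly confounded, with Y-linked UMIs among the host cells of KO only. Depth limits Trib3, Chac1, Sesn2 and Ddit4 in host cells and all genes in endothelial-like cells. The 3 subsets of melanoma-like cells, with 5 to 7.5% mitochondrial UMIs, with a Mki67 or Top2a UMI and below the median hypoxia share, were chosen after seeing the data. Of the 84 recomputed values that answer the comparisons, 77 were within 1.5 times the main value and 7 moved. In CAF-like cells with Xist and no Y-linked UMI, 4 of the genes were lower by 1.5-fold in place of 2, and with thinning to 2000 UMIs 2 genes in macrophage-like cells were higher in place of 1. With no minimum of UMIs, the background share of higher genes was 10.9% in the macrophage, 51.8% in the monocyte and 58.7% in the endothelial gate, and that of lower genes 5.79% in the endothelial and 5.61% in the melanoma gate. For single genes 25 of 353 recomputed values left the counting interval of the main value and 0 called values changed sign. Over these alternatives the melanoma ratio of Nupr1 ran from 2.24 to 3.47 and that of Atf5 from 1.77 to 2.28. Subsets not counted among them, with at least 20 cells in each library, reached down to 0.995 for Nupr1 and 1.18 for Atf5. Both were at 1 to 2.5% mitochondrial UMIs. Under 1%, where WT held 7 cells, Atf5 was at -0.42 (-1.81 to 1.47), from 4 WT and 147 KO UMIs. That of Sesn2 was 0.13 with a 15% mitochondrial limit. In CAF-like cells Atf5 ran from -1.83 to -1.09 and Atf3 from -1.50 to -1.14.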

Other observations

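The genes whose levels were most like each regulator were sought by Pearson's r of log2(CPM + 1) over 10 sums, those of 5 gates in 2 libraries, among 9870 genes with at least 200 UMIs. Sums of the same gate are not independent, so r is a description. Cebpb was most like Gadd45b (0.982), S100a4 (0.969) and Rgs2 (0.966), and Atf3 most like Slc31a2 (0.974), Irf8 (0.969) and Actr2 (0.966). Atf5 was most like Stt3a (0.956), a subunit of the N-glycosylation enzyme of the endoplasmic reticulum, then Smim1 (0.935) and R3hdm4 (0.929). Nupr1 was most like Fam46a (0.925), Prrc1 (0.875) and Coq8b (0.872). For Ddit3 the nearest gene was Emb (0.959), for Ddit4 Map1b (0.945), for Cebpg Tgoln1 (0.931), for Trib3 Alkbh3 (0.949), for Sesn2 Git1 (0.965) and for Chac1 Morn4 (0.996). The last 3 regulators had few UMIs in most gates. None of the nearest genes was another regulator of the group.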
